A study of Mus musculus with 10 samples.

Results

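The genes described here carry dietary fat through an absorptive cell of the gut and load it into chylomicrons. They are 10 of the 18398 genes in the deposited table, taken by name: Cd36, Fabp1 and Fabp2 for uptake and binding of fatty acids, Mogat2 and Dgat1 for rebuilding triglyceride, Apob, Mttp, Apoa1 and Apoa4 for assembling the particle, and Sar1b for its export. The rule itself uses no measured value. Their levels are given in FPKM, fragments per kilobase of transcript scaled to the library's total, in colon tissue of wild-type mice. Mice on a pro-inflammatory diet gave libraries PI-1 to PI-5, and control mice on a normal diet gave CN-1 to CN-5. The study's design text names the effect of that diet on colon expression as the question. The composition of either diet, its duration, the strain, sex and age of the mice, the segment of colon taken and whether colitis was induced are not given in the sources used here. The labels do not say that each library came from a separate mouse, so p-values measure only the spread between these libraries, which may be technical. In whole tissue, fewer cells of a type and less RNA per cell cannot be told apart.

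Fat absorption is mainly the work of the small intestine. Fatty acids and monoglycerides enter the enterocyte, are bound by cytosolic proteins, and are joined again into triglyceride on the endoplasmic reticulum. There triglyceride is loaded onto apolipoprotein B, and the finished chylomicron leaves in a large transport vesicle for the Golgi and the lymph. The colon takes up little dietary fat, and several of these genes are also strongly expressed in liver (Fabp1, Apoa1, Apob, Mttp), adipose tissue or blood vessels (Cd36). Hoxb13 is a homeobox gene whose expression along the gut is typical of the distal colon and rectum.

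Some libraries stood apart, and the results below are given with and without them. The libraries held 15652783 to 18341956 reads on genes, recovered from the steps in the FPKM values. Hoxb13 was listed at 312, 0.417, 292, 341 and 20.9 FPKM in PI-1 to PI-5, against 211, 262, 218, 333 and 322 FPKM in CN-1 to CN-5. PI-2 and PI-5 were therefore far below the other 8 libraries, and Hoxb13 itself did not pass the diet test (log2 fold change -2.08, limma adjusted p = 0.427). Hepatocyte markers (12 of 12 measured) summed to 242 and 251 FPKM in PI-1 and PI-3. The sum was 18.3 to 56.1 FPKM in the other 3 pro-inflammatory diet libraries and 47.4 to 67.7 FPKM in the normal diet libraries. Ttr and Tat, named after their values were seen, averaged 30.8 and 13.9 FPKM under the normal diet, a large part of the sum there. Tat varied 1.78-fold over all libraries, so not every marker followed the sum. Small intestine markers (13 of 13 measured) summed to 547 and 280 FPKM in PI-2 and PI-5, and to 441 FPKM in CN-4. They summed to 104 to 139 FPKM in PI-1, PI-3 and PI-4 and to 67.6 to 90.8 FPKM in the other 4 normal diet libraries. Fabp6 alone gave 405 FPKM of the sum in PI-2, 125 FPKM in PI-5 and 156 FPKM in CN-4. Defa24 gave 117 FPKM in CN-4 (both genes were named after their values were seen). Epithelial markers summed to 7641 to 9068 FPKM and 6452 to 8559 FPKM under the pro-inflammatory and the normal diet. They show that epithelium was present and cannot tell colon from small intestine. Smooth muscle markers summed to 2388 to 3274 FPKM under the pro-inflammatory diet, against 2741 to 4070 FPKM under the normal diet. On average 10 of 10 were lower, as were 6528 of all 12345 genes tested. At an unadjusted limma p under 0.05, 8 of 10 were lower, against 9.25% of all genes tested, and 0 were called. Markers of 1 cell type can move together, so these are not separate results. The part of smooth muscle in the Sar1b and Cd36 differences was not tested. Pancreatic acinar markers (7 of 8 measured) summed to no more than 1.48 FPKM in any library.

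The diet did not change these genes past the test's threshold. Of the 10 genes, 8 had a mean of at least 1 FPKM and entered the test, and Mogat2 and Apoa4 did not. With limma on log2(FPKM + 1) and Benjamini-Hochberg adjustment over all 12345 genes tested, 0 of the 8 were called, and 0 of all genes tested (0%) were called. At an unadjusted p under 0.05, 2 of the 8 were higher under the pro-inflammatory diet (Cd36 and Sar1b) and 0 were lower. Over all genes tested, 17.4% were below that p, 8.16% with a higher and 9.25% with a lower level. With limma voom on the recovered reads, 0 of the 8 were called and 2 were under that unadjusted p. The median log2 fold change was 0.15 over the 8 genes and -0.01 over all genes. In 0 of the 8 did the diets not overlap, against 1.77% of all genes that were higher and 2.07% that were lower in every library of the pro-inflammatory diet.

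**Figure D1:**
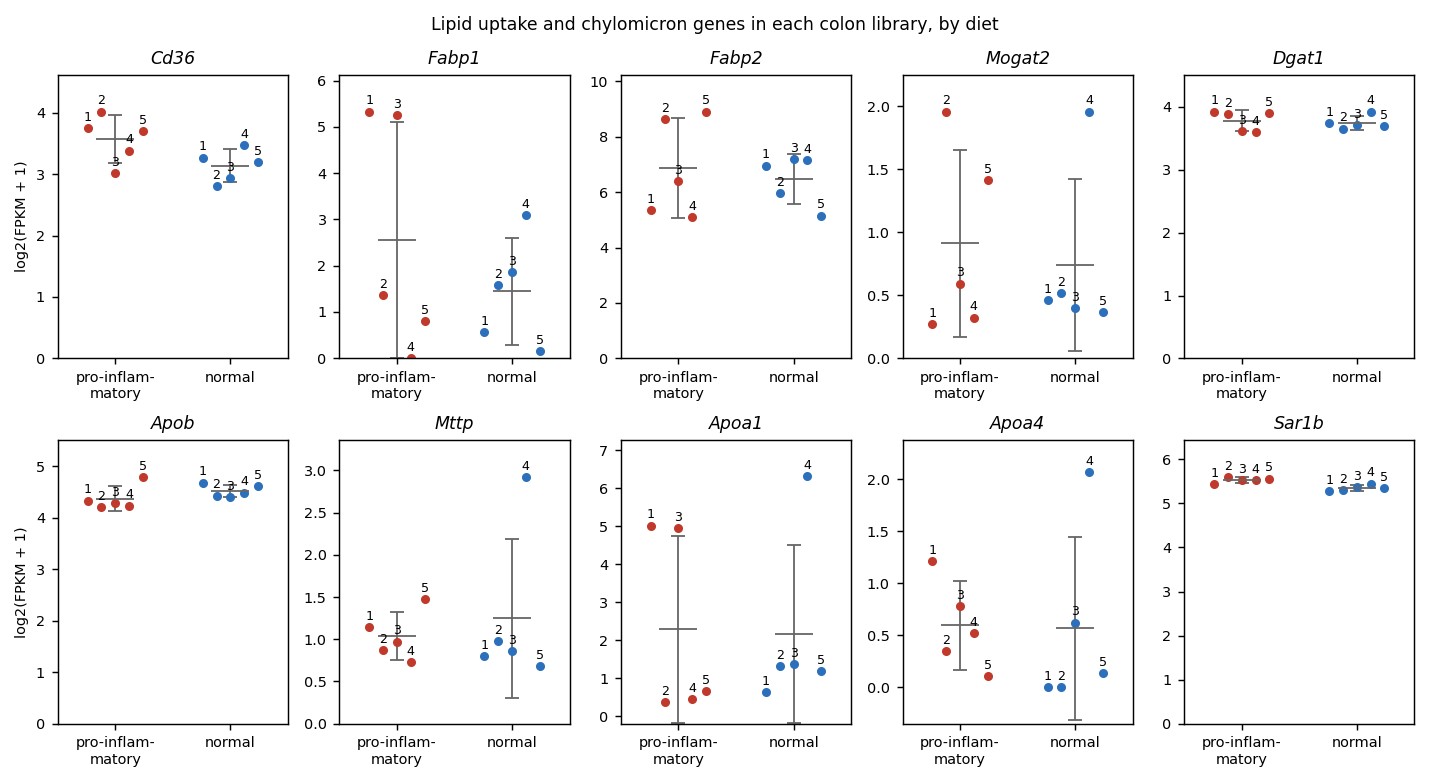
Log2(FPKM + 1) (vertical axes) of the 10 genes in each of the 5 pro-inflammatory diet and 5 normal diet libraries (points, numbered by library); bars give the mean and SD of each diet. Sar1b, Dgat1 and Apob varied little between libraries, while Apoa1 reached 31.3 and 29.7 FPKM in PI-1 and PI-3 and 79.0 FPKM in CN-4.

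**Figure D2:**
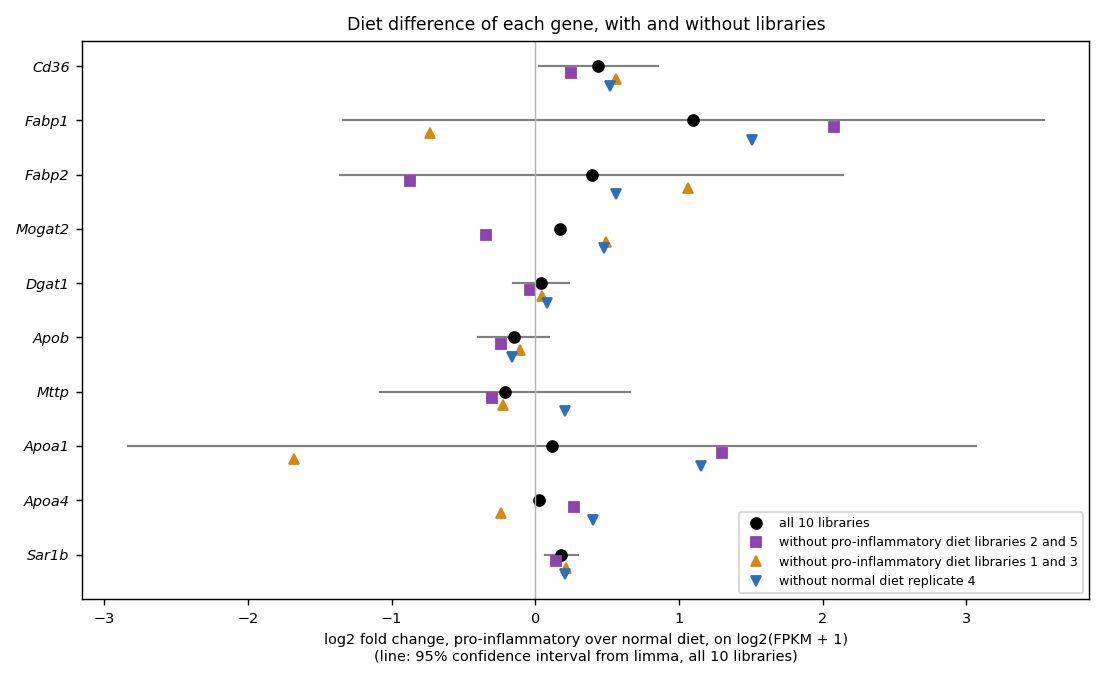
Log2 fold change on the log2(FPKM + 1) scale, pro-inflammatory minus normal diet, of the 10 genes over all libraries (black points), with limma's 95% confidence intervals for the 8 tested, and without PI-2 and PI-5 (squares), without PI-1 and PI-3 (upward triangles) or without CN-4 (downward triangles). The intervals of Sar1b (0.07 to 0.30) and Cd36 (0.02 to 0.85) did not cover 0, and neither gene passed the adjusted threshold.

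Cd36 lies at chr5:17781690-17888801 on the minus strand (GRCm38, GENCODE M21) and encodes a membrane receptor for long-chain fatty acids, found on enterocytes and also on adipocytes, macrophages and capillary endothelium. Its level was 12.4, 15.2, 7.09, 9.43 and 12.0 FPKM in PI-1 to PI-5, against 8.64, 5.96, 6.63, 10.1 and 8.17 FPKM in CN-1 to CN-5. The groups overlapped, with PI-1, PI-2 and PI-5 above every normal diet library and PI-3 and PI-4 within their range. The means were 11.2 ± 3.08 and 7.89 ± 1.63 FPKM under the pro-inflammatory and the normal diet (SD, n = 5 each). The log2 fold change was 0.44 (SE 0.19), and the limma adjusted p was 0.267. The 2-sided exact permutation test gave p = 0.0794.

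The libraries with the most Cd36 under the pro-inflammatory diet also held the most adipocyte and macrophage marker RNA. Adipocyte markers (10 of 10 measured, 9 with a higher mean under the pro-inflammatory diet) summed to 235, 338, 79.3, 79.3 and 229 FPKM in PI-1 to PI-5, against 166, 98.2, 107, 142 and 77.0 FPKM in CN-1 to CN-5. Adiponectin, Adipoq, which defines adipocytes, was at 11.1, 20.5, 0.574, 0.490 and 9.85 FPKM in PI-1 to PI-5, and at 6.12, 1.50, 1.95, 5.11 and 0 FPKM in CN-1 to CN-5. In each diet the 2 libraries with the most Adipoq were among the 3 with the most Cd36. Macrophage markers (10 of 11 with a higher mean under the pro-inflammatory diet) summed to 380, 407, 244, 293 and 294 FPKM in PI-1 to PI-5. That is the order of these libraries in Cd36, although the sums of PI-4 and PI-5 were almost equal. In CN-1 to CN-5 the macrophage markers summed to 261, 265, 245, 248 and 344 FPKM, where the order was not that of Cd36. Lyz2, named after its values were seen, gave most of the sum. It was at 265, 246, 160, 174 and 165 FPKM in PI-1 to PI-5, which is not the order of Cd36. Endothelial markers (3 of 10 with a higher mean under the pro-inflammatory diet) summed to 62.0 to 86.4 FPKM, against 70.5 to 86.8 FPKM under the normal diet. The part of these cell types in the Cd36 level was not tested.

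**Figure D3:**
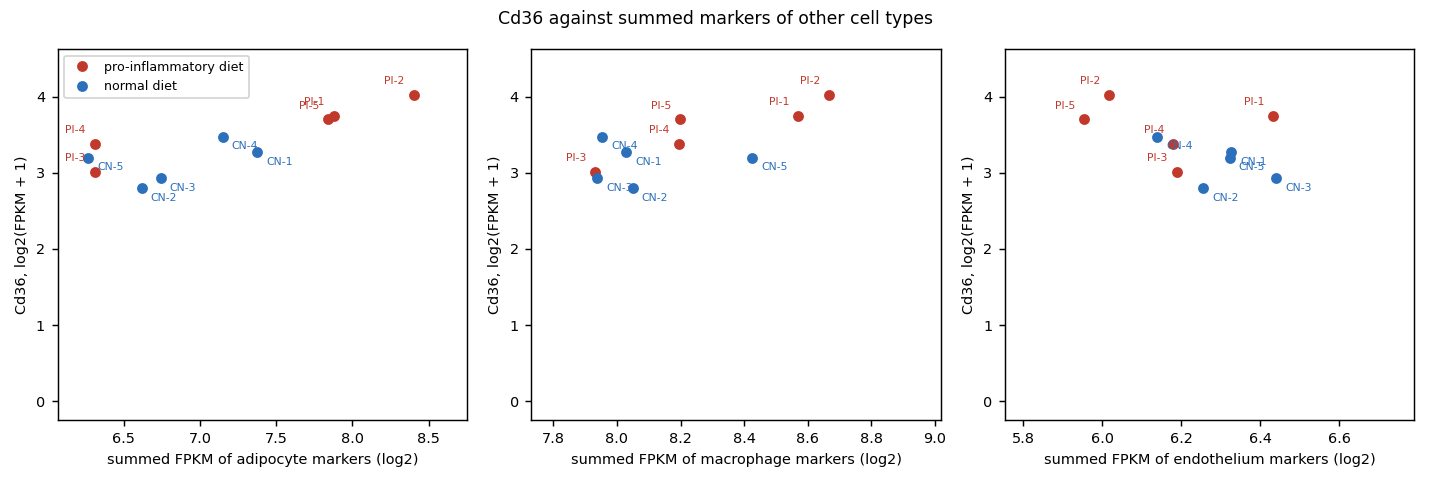
Cd36 in log2(FPKM + 1) (vertical axes) against the summed FPKM of adipocyte, macrophage and endothelial markers (horizontal axes, log2 scale), 1 point for each of the 10 libraries, coloured by diet. PI-2 had the highest Cd36 (15.2 FPKM), the highest adipocyte sum (338 FPKM) and the highest macrophage sum (407 FPKM).

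Fabp1 encodes the liver-type fatty acid-binding protein, abundant in hepatocytes and in enterocytes of the proximal small intestine. The gene lies at chr6:71199827-71205023 on the plus strand (GRCm38, GENCODE M21). Fabp1 was at 39.3, 1.56, 37.2, 0 and 0.736 FPKM in PI-1 to PI-5, against 0.475, 1.99, 2.62, 7.53 and 0.108 FPKM in CN-1 to CN-5. The recovered reads behind these values were 357, 14, 350, 0 and 6, against 4, 16, 24, 68 and 1. PI-1 and PI-3 were thus the only libraries above 10 FPKM, and the other 3 pro-inflammatory diet libraries lay within or below the range of the normal diet. In PI-4 the count of 0 allows up to 3 reads. The log2 fold change was 1.10 (SE 1.10), its 95% interval ran from -1.34 to 3.54, and limma's adjusted p was 0.595. Without PI-1 and PI-3 the log2 fold change was -0.730.

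Fabp2 encodes the intestinal-type fatty acid-binding protein, a cytosolic carrier made by enterocytes. It lies at chr3:122895072-122899506 on the plus strand (GRCm38, GENCODE M21). Fabp2 was at 39.8, 395, 83.1, 33.0 and 479 FPKM in PI-1 to PI-5, against 123, 60.9, 145, 142 and 34.6 FPKM in CN-1 to CN-5. PI-2 and PI-5 were above all other libraries, and PI-4, CN-5 and PI-1 were the lowest, with a 14.5-fold distance from lowest to highest. The means were 206 ± 214 and 101 ± 50.3 FPKM under the pro-inflammatory and the normal diet (SD, n = 5 each). This gave a log2 fold change of 0.39 (SE 0.79, 95% interval -1.36 to 2.14) and limma's adjusted p was 0.807. Without PI-2 and PI-5 it was -0.871, with an adjusted p of 0.414.

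The 250 bases before RefSeq's start of each gene are shown for the 2 binding proteins, since they were high in different libraries (Fabp1 in PI-1 and PI-3, Fabp2 in PI-2 and PI-5). The sequences are RefSeq's on GRCm38.p6, plus strand, 5′ to 3′, ending at the base before the start site. For Fabp1 that start lies 52 bases downstream of the GENCODE start given above, so the last 52 bases shown lie in the GENCODE gene, while for Fabp2 the starts are the same. Capitals mark matches on either strand to 3 motifs chosen with the sequences in view: CAAAGTNCA (bound by HNF4-type factors of liver and gut), TTTAT (the core bound by CDX-type intestinal factors) and GTTAAT (part of the site of HNF1-type factors).
Fabp1, chr6:71199629-71199878: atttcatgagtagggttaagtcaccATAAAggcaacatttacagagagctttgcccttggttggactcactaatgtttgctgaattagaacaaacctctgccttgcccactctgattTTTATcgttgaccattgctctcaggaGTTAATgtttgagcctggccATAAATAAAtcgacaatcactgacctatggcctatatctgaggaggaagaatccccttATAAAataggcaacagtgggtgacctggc
Fabp2, chr3:122894822-122895071: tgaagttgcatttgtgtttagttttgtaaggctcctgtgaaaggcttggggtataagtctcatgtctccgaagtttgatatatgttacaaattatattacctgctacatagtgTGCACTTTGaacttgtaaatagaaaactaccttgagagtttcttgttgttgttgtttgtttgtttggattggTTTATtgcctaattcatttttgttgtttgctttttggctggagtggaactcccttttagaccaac
Fabp1 held 5 TTTAT matches, beginning 225, 133, 87, 83 and 29 bases before the start, and 1 GTTAAT match at 107 bases. The matches at 87 and 83 bases overlap each other, and the one at 29 bases overlaps a TATAAA box. Fabp2 held 1 CAAAGTNCA match at 137 bases and 1 TTTAT match at 65 bases. Of 32851 mouse windows of this length, 1.19% held CAAAGTNCA, 37.3% held TTTAT, 6.43% held GTTAAT and 12.4% held TATAAA. A match is a description of the letters and does not show that a factor bound there.

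Mogat2 encodes the acyltransferase that adds a fatty acid to monoglyceride, the first step of rebuilding triglyceride in enterocytes. It lies at chr7:99219084-99238619 on the minus strand (GRCm38, GENCODE M21). Mogat2 was at 0.206, 2.89, 0.510, 0.252 and 1.67 FPKM in PI-1 to PI-5, against 0.380, 0.432, 0.320, 2.89 and 0.288 FPKM in CN-1 to CN-5. PI-2, PI-5 and CN-4 were the only libraries above 1 FPKM, with 97, 51 and 98 reads against 7 to 18 reads in the other 7. Its mean over all libraries was 0.984 FPKM, just under the filter. The difference in means of log2(FPKM + 1), pro-inflammatory minus normal diet, was 0.17 (exact permutation p = 0.841, n = 5 each).

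Dgat1 encodes the acyltransferase of the last step, from diglyceride to triglyceride, and is expressed in many tissues. It lies at chr15:76502015-76511953 on the minus strand (GRCm38, GENCODE M21). Dgat1 was at 14.2, 13.8, 11.2, 11.1 and 13.9 FPKM in PI-1 to PI-5, against 12.4, 11.6, 12.1, 14.2 and 11.9 FPKM in CN-1 to CN-5. The diets overlapped throughout, and the highest and lowest libraries were 1.28-fold apart. The means were 12.8 ± 1.56 and 12.4 ± 1.05 FPKM under the pro-inflammatory and the normal diet (SD, n = 5 each). The log2 fold change was 0.04 (SE 0.09, limma adjusted p = 0.830), with a 95% interval up to 0.23.

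Apob encodes the structural protein of chylomicrons and of the liver's very low-density lipoprotein. It lies at chr12:7977648-8016835 on the plus strand (GRCm38, GENCODE M21). Apob was at 19.1, 17.5, 18.5, 17.8 and 26.7 FPKM in PI-1 to PI-5, against 24.6, 20.5, 20.0, 21.4 and 23.5 FPKM in CN-1 to CN-5. All but 1 of the pro-inflammatory diet libraries were below every normal diet library, and PI-5 was above them all. The means were 19.9 ± 3.85 and 22.0 ± 1.97 FPKM under the pro-inflammatory and the normal diet (SD, n = 5 each). This is a log2 fold change of -0.15 (SE 0.11, limma adjusted p = 0.480). Apob was present in every library with 4115 to 5934 reads and varied 1.53-fold, although Apoa1, its partner on the particle, varied 273-fold.

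Mttp encodes the transfer protein that loads lipid onto apolipoprotein B. It lies at chr3:138089854-138144968 on the minus strand (GRCm38, GENCODE M21). Mttp was at 1.21, 0.828, 0.962, 0.656 and 1.78 FPKM in PI-1 to PI-5, against 0.743, 0.968, 0.810, 6.59 and 0.601 FPKM in CN-1 to CN-5. CN-4 stood alone with 513 reads, and the next library, PI-5, held 125. Its log2 fold change was -0.21 (SE 0.39, limma adjusted p = 0.791). Without CN-4 it was 0.210, with an adjusted p of 0.428.

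Apoa1 and Apoa4 encode apolipoproteins of the chylomicron surface. Apoa1 is also the main protein of high-density lipoprotein, made in liver and small intestine, and Apoa4 in rodents is made mainly in the small intestine. Both genes lie on chromosome 9, at chr9:46228580-46230466 and chr9:46240696-46243459 on the plus strand, 10.2 kb apart (GRCm38, GENCODE M21). Apoa1 was at 31.3, 0.289, 29.7, 0.367 and 0.572 FPKM in PI-1 to PI-5, against 0.554, 1.48, 1.58, 79.0 and 1.29 FPKM in CN-1 to CN-5. PI-1, PI-3 and CN-4 held 548, 539 and 1376 reads, against 5 to 28 reads in the other 7 libraries. Both diets thus had libraries near 0 and libraries far above them. Between diets, Apoa1 had a log2 fold change of 0.12 (SE 1.33, 95% interval -2.83 to 3.07, limma adjusted p = 0.969). It was -1.68 without PI-1 and PI-3 and 1.16 without CN-4.

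Apoa4 was at 1.32, 0.274, 0.719, 0.435 and 0.0754 FPKM in PI-1 to PI-5, against 0, 0, 0.537, 3.20 and 0.0996 FPKM in CN-1 to CN-5. The reads behind these values were 39, 8, 22, 12 and 2, against 0, 0, 16, 94 and 3. CN-4 was the highest and PI-1 the next, as was true of Apoa1, and a count of 0 allows up to 3 reads. Its mean over all libraries was 0.666 FPKM, so it was not tested across genes. The difference in means of log2(FPKM + 1) was 0.03 (exact permutation p = 0.952, n = 5 each).

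Apoa1 and Apoa4 were both highest in CN-4, PI-1 and PI-3, in that order. Apoa4 stood to Apoa1 at 0.0405 in CN-4, 0.0422 in PI-1 and 0.0242 in PI-3. The ratio was not constant: it was 0.949 in PI-2, 1.19 in PI-4 and 0.339 in CN-3. Those 3 values rest on 5, 6 and 28 reads of Apoa1. Since the same libraries were highest for both genes, their upstream sequences are shown in the same way, with the same motifs in capitals. RefSeq's start lies 50 bases (Apoa1) and 148 bases (Apoa4) downstream of the GENCODE start given above, so each window covers that many bases of the GENCODE gene.
Apoa1, chr9:46228380-46228629: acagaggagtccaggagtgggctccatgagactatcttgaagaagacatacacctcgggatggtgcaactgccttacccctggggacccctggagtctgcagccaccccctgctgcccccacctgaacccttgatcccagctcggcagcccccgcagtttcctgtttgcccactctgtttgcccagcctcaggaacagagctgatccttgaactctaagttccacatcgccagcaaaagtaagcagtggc
Apoa4, chr9:46240594-46240843: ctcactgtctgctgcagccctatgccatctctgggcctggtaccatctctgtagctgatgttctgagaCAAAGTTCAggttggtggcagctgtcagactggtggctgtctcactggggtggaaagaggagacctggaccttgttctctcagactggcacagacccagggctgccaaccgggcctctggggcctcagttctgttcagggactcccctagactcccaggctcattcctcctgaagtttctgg
Apoa4 held 1 CAAAGTNCA match, 182 bases before RefSeq's start, and no TTTAT or GTTAAT match. Apoa1 held no match to the 3 motifs in this window. That says only that these letters are not in the window. Upstream sequences of 8 of the 10 genes were in the RefSeq table used.

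Sar1b encodes the small GTPase of the COPII coat, which buds transport vesicles from the endoplasmic reticulum. Mutations of human SAR1B cause chylomicron retention disease. The mouse gene lies at chr11:51763687-51791925 on the plus strand (GRCm38, GENCODE M21). Sar1b was at 42.4, 47.6, 45.4, 45.0 and 46.3 FPKM in PI-1 to PI-5, against 38.0, 38.5, 40.2, 42.7 and 39.9 FPKM in CN-1 to CN-5. The only overlap was that PI-1 was just below CN-4. The means were 45.4 ± 1.93 and 39.9 ± 1.81 FPKM under the pro-inflammatory and the normal diet (SD, n = 5 each). The log2 fold change was 0.18 (SE 0.05), and the unadjusted p from limma was 0.00514. The adjusted p was 0.173, and it ran from 0.0724 (without CN-4) to 0.877 (without CN-1, CN-2 and CN-3) over the alternatives. The exact permutation test gave p = 0.0159, and the smallest it can give is 0.00794.

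In PI-1 and PI-3, Fabp1 was at its highest and Apoa1 was second only to CN-4, and hepatocyte genes were also at their highest. Albumin, Alb, the most abundant secreted protein of hepatocytes, was at 97.3, 0.166, 100, 0.703 and 0.549 FPKM in PI-1 to PI-5, against 2.33, 7.92, 6.48, 8.45 and 1.53 FPKM in CN-1 to CN-5. None of the 12 hepatocyte markers was at 0 in PI-1 or PI-3, while 4, 5 and 3 of them were at 0 in PI-2, PI-4 and PI-5 and 1, Cyp7a1, was at 0 in each normal diet library. The ratio of Fabp1 to Alb was 0.404, 9.39, 0.371 and 1.34 in PI-1, PI-2, PI-3 and PI-5, against 0.204, 0.252, 0.404 and 0.892 in CN-1 to CN-4. The ratio of Apoa1 to Alb was 0.321, 1.74, 0.296, 0.522 and 1.04 in PI-1 to PI-5, against 0.238, 0.187, 0.244, 9.35 and 0.842 in CN-1 to CN-5. PI-1 and PI-3 were alike in both ratios, but the ratios were not constant over the libraries. In PI-2 and PI-5 they rest on 6 and 18 reads of Alb, while in CN-4, with 307, they do not. The part of hepatocyte RNA in the Fabp1 and Apoa1 levels was not tested.

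Of the 5 other apolipoproteins in the assembly list, all named after their values were seen except Apoe, 3 had PI-1 and PI-3 far above the rest. Apoa2, a high-density lipoprotein component of liver, was at 33.0 and 30.0 FPKM in PI-1 and PI-3, against 0.244 to 0.873 FPKM in the other pro-inflammatory diet libraries and 0.827 to 2.79 FPKM in the normal diet libraries. Apoc3, an inhibitor of lipoprotein lipase, was at 12.1 and 10.7 FPKM in PI-1 and PI-3. It was at 0.0842 to 0.486 FPKM in the other 3, and at 0.407 to 1.98 FPKM under the normal diet. Apoa5, a liver protein that lowers plasma triglyceride, was at 3.32 and 2.32 FPKM in PI-1 and PI-3 and at 0.133 FPKM or less elsewhere. Apoc2, the activator of lipoprotein lipase, was at 0.0670 FPKM or less under the pro-inflammatory diet, against 0 to 0.349 FPKM under the normal diet, and Apoe was at 184, 177, 135, 102 and 140 FPKM in PI-1 to PI-5, against 91.4 to 117 FPKM. In CN-4, where Apoa1 was at 79.0 FPKM, Apoa2 was at 2.79, Apoc3 at 1.98 and Apoa5 at 0.0673 FPKM.

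CN-4 combined the highest Apoa1, Mttp and Apoa4, and a Mogat2 level equal to that of PI-2, with several small intestine markers (the genes of this paragraph were picked after their values were seen). Sucrase-isomaltase, Sis, a brush-border enzyme, was at 17.6 FPKM in CN-4, against 0.110 to 4.12 FPKM under the pro-inflammatory diet and 0.0919 to 0.260 FPKM in the other normal diet libraries. Lactase, Lct, was at 1.47 FPKM in CN-4 and at 0.0555 FPKM or less elsewhere. Npc1l1, the cholesterol transporter of the enterocyte, was at 3.44 FPKM in CN-4, against 0.385 FPKM or less under the pro-inflammatory diet. The Paneth cell defensin Defa24 was at 117 FPKM in CN-4 and at 2.85 FPKM or less elsewhere. Not all markers of that list were raised: the brush-border phosphatase Alpi was at 2.79 FPKM in CN-4, against 19.6 and 25.4 FPKM in PI-2 and PI-5 and 2.57 and 2.73 FPKM in CN-1 and CN-3. Hoxb13 was at 333 FPKM in the same library. The part of small intestine RNA in the CN-4 values was not tested.

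**Figure D4:**
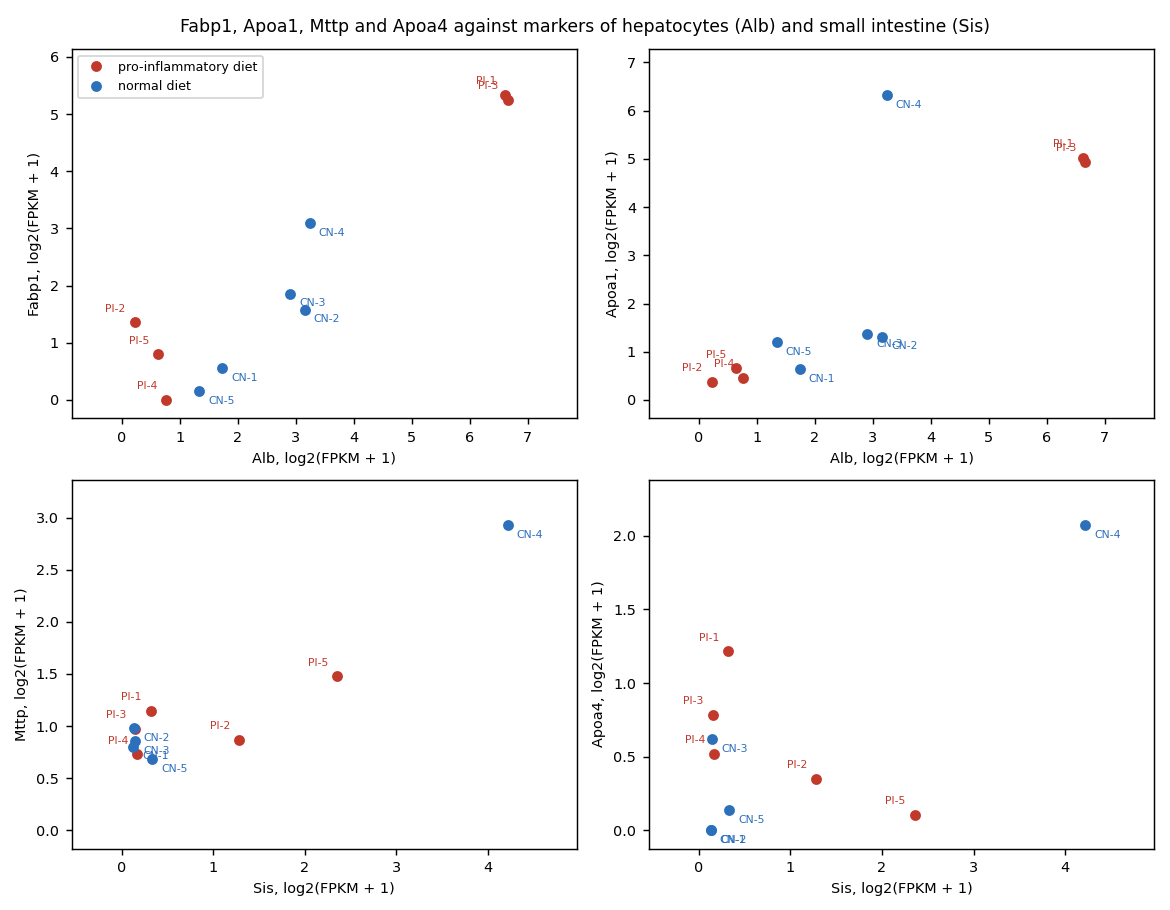
Upper panels: Fabp1 and Apoa1 against Alb; lower panels: Mttp and Apoa4 against Sis; all axes are log2(FPKM + 1), 1 point for each library, coloured by diet. PI-1 and PI-3 lie together at the highest Alb (97.3 and 100 FPKM), and CN-4 lies apart at the highest Sis (17.6 FPKM).

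PI-2 and PI-5, the libraries with little Hoxb13, had another pattern, with high Fabp2 and Mogat2. Apoa1 (0.289 and 0.572 FPKM) and Apoa4 (0.274 and 0.0754 FPKM) were low in them, but not only in them. Apoa1 was at 0.367 FPKM in PI-4 and 0.554 FPKM in CN-1. Apoa4 was at 0, 0 and 0.0996 FPKM in CN-1, CN-2 and CN-5. Isx, an intestinal homeobox repressor of vitamin A uptake genes, was at 94.6 and 68.7 FPKM in PI-2 and PI-5, against 0.896 to 2.21 FPKM in the other pro-inflammatory diet libraries and 0.758 to 6.77 FPKM under the normal diet. Cdx2, the homeobox gene of intestinal identity, was at 123 and 118 FPKM in PI-2 and PI-5, against 12.7 to 33.2 FPKM and 14.8 to 53.3 FPKM. Slc10a2, the bile acid transporter of the ileum, was at 39.5 and 40.7 FPKM in PI-2 and PI-5. Fabp6, the bile acid-binding relative of Fabp1 and Fabp2 in the ileum, was at 405 and 125 FPKM there, against 12.1 to 16.6 FPKM in the other pro-inflammatory diet libraries and 3.81 to 156 FPKM under the normal diet, with CN-4 the highest of these. Rbp2, a retinol-binding protein of enterocytes on the same marker list, went the other way, at 6.12 and 6.73 FPKM in PI-2 and PI-5, against 29.5 to 44.6 FPKM and 20.0 to 36.0 FPKM. Lct was not raised there (0.0555 and 0.0407 FPKM). Slc10a2, Fabp6, Rbp2, Lct and Krt20 were named after their values were seen. The part of small intestine RNA in the Fabp2 and Mogat2 levels was not tested. Hoxd13, a posterior homeobox gene like Hoxb13, was at 0.0222 and 0.293 FPKM there, against 24.2 to 47.3 FPKM in PI-1, PI-3 and PI-4 and 16.5 to 46.7 FPKM under the normal diet. Krt20, a keratin of surface epithelial cells, was at 644 and 680 FPKM in PI-2 and PI-5, against 197 to 240 FPKM and 196 to 278 FPKM.

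The relation to Hoxb13 was measured for each gene as a slope: the change in its log2(FPKM + 1) per unit of log2(Hoxb13 FPKM + 1), with diet in the same limma model. Of the 8 tested genes, 1 passed the adjusted threshold, Fabp2, against 15.8% of 12344 genes, so the count is near that of all genes. Fabp2 had a slope of -0.45 (SE 0.11, 95% interval -0.70 to -0.20, adjusted p = 0.0230 by limma over all genes). Without PI-2 and PI-5 the slope was -1.59 and its adjusted p 0.660. Without PI-1 alone the adjusted p was 0.0553, and without PI-4 alone 0.0751. The slopes of the other 7 genes were between -0.08 (Cd36, adjusted p = 0.183) and 0.46 (Apoa1, adjusted p = 0.296).

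Across the 10 libraries, 10 relations with Hoxb13 were computed on the log2(FPKM + 1) scale. For Fabp2, Pearson's r was -0.77 (permutation p = 0.0136) and Spearman's rho was -0.77 (permutation p = 0.0123). The largest step in Hoxb13, 0.499 of its range on that scale, lay between PI-2 and PI-5, the libraries farthest from the median. Without them r for Fabp2 was -0.61 (exact permutation p = 0.106, n = 8), so the sign was kept and the p was no longer under 0.05 in fewer libraries. For Cd36, r was -0.67 (permutation p = 0.0425) with a rho of -0.15 (permutation p = 0.679), and without PI-2 and PI-5 r was 0.50 (exact permutation p = 0.195, n = 8). For Sar1b, r was -0.60 (permutation p = 0.0497) with a rho of -0.18 (permutation p = 0.625), and without them r was 0.67 (exact permutation p = 0.0717, n = 8). The sign for Cd36 and Sar1b thus depended on the same libraries. For Apoa1, r was 0.42 (permutation p = 0.0238) with a rho of 0.42 (permutation p = 0.234). Without PI-2 and PI-5 its r was 0.43 (exact permutation p = 0.318, n = 8). Each p is the smaller tail of the permutations doubled, so it does not rank genes by the size of r. Dgat1, with an r of -0.453, had a permutation p of 0.252. For Mogat2, r was -0.67 (permutation p = 0.0743) with a rho of -0.41 (permutation p = 0.248). Without PI-2 and PI-5 its r was 0.28 (exact permutation p = 0.612, n = 8). For Apoa4, r was 0.275 (permutation p = 0.448) with a rho of 0.505 (permutation p = 0.140). Without them its r was 0.48 (exact permutation p = 0.194, n = 8). Fabp1, Dgat1, Apob and Mttp had r from -0.45 to 0.22, with permutation p of 0.252 or more.

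**Figure D5:**
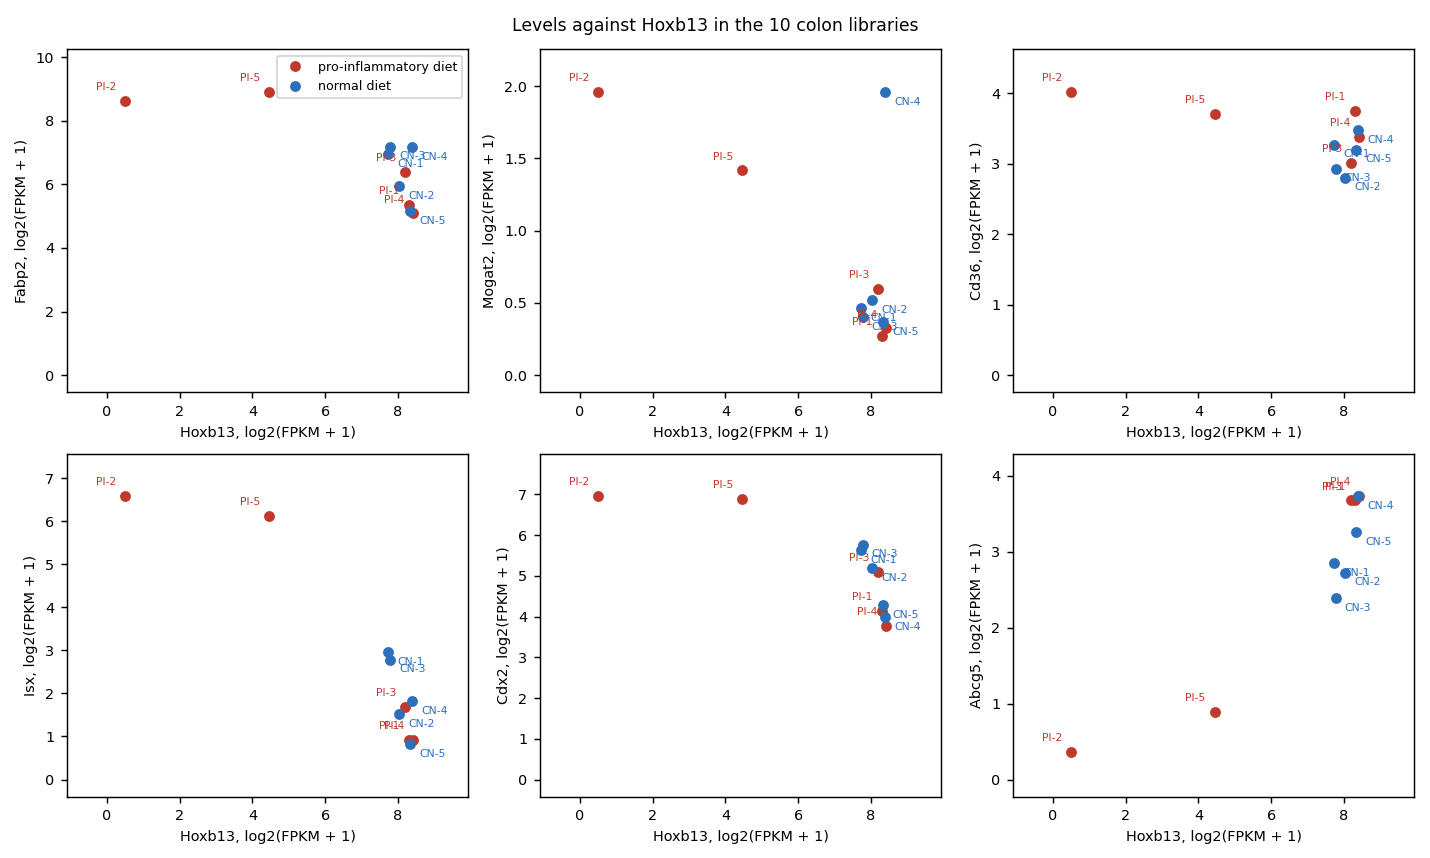
Fabp2, Mogat2, Cd36, Isx, Cdx2 and Abcg5 (vertical axes) against Hoxb13 (horizontal axes), all in log2(FPKM + 1), 1 point for each of the 10 libraries, coloured by diet. PI-2 and PI-5 lie to the left with Hoxb13 at 0.417 and 20.9 FPKM and hold the highest Fabp2 (395 and 479 FPKM).

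The other genes of the pathway were read from lists of uptake, re-esterification, assembly and export, regulators and posterior homeobox genes, 76 genes measured and 69 tested. With limma, 0 of 69 were called for diet. The unadjusted p was below 0.05 for 7 genes that were higher and 2 that were lower, and the median log2 fold change was 0.06. Limma voom on the recovered reads also called 0. Over the whole set of genes tested, 8.16% were higher and 9.25% were lower by the unadjusted p. Uptake genes had 4 of 10 higher and 0 lower by it, among them Scarb1, a receptor for lipoprotein cholesterol (8.12 ± 0.554 and 6.84 ± 0.522 FPKM under the pro-inflammatory and the normal diet, log2 fold change 0.22, limma adjusted p = 0.182). Slc27a2, a fatty acid transporter and acyl-CoA synthetase, averaged 3.43 ± 1.40 and 1.99 ± 0.215 FPKM (log2 fold change 0.51, adjusted p = 0.216). Its highest libraries were PI-1 and PI-3, at 5.44 and 4.26 FPKM. Assembly and export genes had 2 of 19 higher, among them Sec13, a subunit of the COPII coat recruited by Sar1, at 79.5 ± 8.07 and 64.3 ± 10.4 FPKM (log2 fold change 0.31, adjusted p = 0.207). Cideb, a lipid droplet protein that takes part in lipoprotein lipidation, averaged 54.5 ± 4.51 and 45.4 ± 4.48 FPKM (log2 fold change 0.26, adjusted p = 0.185), and Apoe, a ligand of lipoprotein receptors, 148 ± 33.2 and 107 ± 11.1 FPKM (0.43, 0.206). Dbi, which binds acyl-CoA, averaged 232 ± 69.1 and 164 ± 15.0 FPKM (0.45, 0.237), with PI-2 and PI-5 at 318 and 295 FPKM.

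Soat1, which makes cholesteryl esters in many tissues, was lower in every pro-inflammatory diet library than in any normal diet library, as were 2.07% of all genes. It was at 14.2, 9.37, 11.7, 11.8 and 9.35 FPKM in PI-1 to PI-5, against 16.7, 17.6, 17.3, 14.6 and 16.2 FPKM in CN-1 to CN-5. Its log2 fold change was -0.52, with a limma adjusted p of 0.151. Without CN-4, PI-1 and PI-3, a setting chosen after the data were seen, the adjusted p was 0.0480. PI-2 and PI-5 were its lowest libraries.

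Of 61 lipid pathway genes, 20 passed the slope test, 6 with a positive and 14 with a negative slope, against 7.87% and 7.96% of all genes. With the posterior homeobox genes, which belong to the same family as Hoxb13 and of which 3 of 7 passed, the count was 23 of 68. Re-esterification genes had 2 positive and 6 negative slopes of 16. Among the negative ones were Lpin2, a phosphatidate phosphatase (slope -0.22, adjusted p = 0.000762), Gpat3, a glycerol-phosphate acyltransferase (-0.26, 0.00471), and Dgat2, a second acyltransferase of triglyceride synthesis (-0.14, 0.0443). Dgat2 was at 28.1 and 29.0 FPKM in PI-2 and PI-5, against 11.5 to 14.9 FPKM in PI-1, PI-3 and PI-4 and 9.83 to 18.5 FPKM under the normal diet, while Dgat1 did not differ in that way (13.8 and 13.9 FPKM). Genes with positive slopes included Plin2, which coats lipid droplets (0.11, 0.00110), and the sterol exporters Abcg5 (0.47, 0.00116) and Abcg8 (0.23, 0.00778). Abcg5 was at 0.284 and 0.860 FPKM in PI-2 and PI-5, against 11.8 to 12.3 FPKM and 4.24 to 12.3 FPKM. Among regulators, Isx (-0.78, 0.00226), Cdx2 (-0.39, 0.0168), the bile acid receptor Nr1h4 (-0.18, 0.00163) and Ppara, a receptor that turns on fatty acid oxidation (-0.19, 0.00554), had negative slopes. Without PI-2 and PI-5, 0 of the 68 passed with limma.

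The genes whose log2(FPKM + 1) followed each member most closely across the 10 libraries were taken by Pearson's r, picked as the highest and given without a test. Fabp2 was most like Alpi (0.961), an alkaline phosphatase of the intestinal brush border, and Car12 (0.960). Fabp1 was most like Apoc1 (0.965) and Serpina3k (0.962), and Apoa1 most like Arg1 (0.943) and Orm1 (0.933), all of which are expressed in liver. Mttp was most like Tcap (0.971) and the defensin Defa30 (0.970), Mogat2 most like Clca4b (0.968) and Mmp7 (0.948), and Apoa4 most like Hmox1 (0.918) and Klk8 (0.889). Sar1b was most like Nup210 (0.978) and Nelfcd (0.977), and Cd36 most like Smoc1 (0.954) and Ddx46 (0.938). Dgat1 was most like Plin4 (0.926), while Apob had no gene above 0.864 (Fam221a). All of these values share the same 10 libraries and their depth.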

How the data were processed

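Colon RNA of 10 mouse samples, 5 on each diet, was measured by stranded mRNA libraries and paired-end Illumina sequencing, per the labels' protocols. The deposited table holds FPKM made by the authors. Tools listed in the submitters' processing notes are Bowtie2, Cufflinks, DESeq, HISAT2, HTSeq, StringTie and Trimmomatic, and the genome is mm10; their settings, and whether counting used the strand, are not given in the sources used here. FPKM divides by each library's total, so abundant genes of 1 library lower its other values.

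Samples were grouped by treatment label and named by title. Values were whole multiples of 1 read for 18398 of 18398 genes, within 0.000210 read, which gave 15652783 to 18341956 reads per library. Intervals and limits from reads cover counting error only. The 12345 genes averaging 1 FPKM or more entered limma 3.58.1 (R 4.3.3) as log2(FPKM + 1) values (eBayes with trend, Benjamini-Hochberg, threshold 0.05); fold changes on this scale understate low genes. The Hoxb13 slope adds log2(Hoxb13 FPKM + 1) to the model. Permutation tests were 2-sided in scipy 1.17.1, with the smaller tail doubled. They were exact for diets and for 8 libraries, and used 100000 resamples for correlations over 10 libraries. Scripts were tested on simulated data. Alternatives were other pseudocounts, filters, scalings, weights, limma voom on the reads, covariates, a replicate block and leaving out libraries.

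The members and all gene lists were chosen with earlier results of these data known. Beside the members, the text could name pathway genes past the diet threshold, filled up to the 8 with the smallest p. It could also name pathway genes past the slope threshold and the 2 genes most like each member. Other genes are marked as named after their values were seen, except the listed cell type markers Alb, Adipoq and Cyp7a1. Some genes that this rule picks are not reported here. Coordinates are 1-based on GRCm38 (the assembly of mm10) from GENCODE M21, and upstream sequences are from RefSeq GRCm38.p6.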

Additional observations from a re-analysis of the deposited data

Results flagged for a closer look

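Within the 5 libraries of a diet, 11 of 94 groups of values checked had 1 library far from the others by Dixon's criterion. Chance marks about 1 in 20 such groups if values are normally distributed. The values here were FPKM without logs and the groups share libraries, so that rate may not hold. CN-4 carried 8 of the 11 values. Its level was 79.0 FPKM for Apoa1 (0.554 to 1.58 in the other normal diet libraries), 6.59 for Mttp (0.601 to 0.968), 3.20 for Apoa4 (0 to 0.537) and 2.89 for Mogat2 (0.288 to 0.432). Dgat1 was at 14.2 FPKM in CN-4 (11.6 to 12.4 in the others), the COPII gene Sec13 at 82.5 FPKM (57.3 to 62.6) and the monoglyceride lipase gene Mgll at 20.4 FPKM (6.28 to 10.4). The summed small intestine markers were at 441 FPKM in CN-4 (67.6 to 90.8).

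Outside CN-4, Apob was at 26.7 FPKM in PI-5 (17.5 to 19.1 in the other pro-inflammatory diet libraries). Hoxa13 was at 18.2 FPKM in CN-2 (22.6 to 24.2 in the other normal diet libraries). The summed macrophage markers were at 344 FPKM in CN-5 (245 to 265).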

How the results depend on the processing

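Of the member genes, none was called for diet under any alternative run. The number of genes called for diet over the whole table was 0 except in a setting added after seeing the data, without CN-4, PI-1 and PI-3, where it was 36, with 1 other pathway gene (Soat1). The number of genes with a Hoxb13 slope was 1954, against 3719 with array weights, 556 with the replicate block, 14 without PI-2 and PI-5, 367 without PI-1 and PI-3 and 349 in the added setting; leaving out 1 library gave 1000 (without PI-4) to 2029. The member count of 1 became 2 with array weights and 0 with the block, without PI-2 and PI-5, without CN-1, CN-2 and CN-3, without PI-1 and PI-3 and in the added setting, and ran from 0 (without PI-1 or PI-4) to 2 (without PI-2) on leaving out 1 library. The count of 23 other pathway genes (posterior homeobox genes included) became 37 with array weights, 10 with the block, 0 without PI-2 and PI-5, 7 without PI-1 and PI-3 and 6 in the added setting. The block ended the Fabp2 call (adjusted p = 0.0803). Replicate numbers were not taken as pairs: the deviations of same-numbered libraries correlated at -0.15, -0.14, -0.13, 0.06 and -0.26, and 0 of 10 libraries correlated best with its own number.

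Directions turned as follows, in log2 units, and the cause was not tested. The diet fold change of Fabp2 was -0.427 with array weights, -0.871 without PI-2 and PI-5, -0.279 with an epithelium covariate, -0.550 with Hoxb13 as covariate, and -0.116 to 0.839 on leaving out 1 library. That of Fabp1 was -0.730 without PI-1 and PI-3 and -0.319 in the added setting. For Dgat1 it was -0.006 with array weights, -0.035 without PI-2 and PI-5, -0.025 without CN-1, CN-2 and CN-3 and -0.013 with Hoxb13 as covariate. For Mttp it was 0.196 in the added setting and -0.351 to 0.210 on leaving out 1 library. For Apoa1 it was -0.149 with a pseudocount of 0.1, -0.164 with voom, -1.473 without CN-1, CN-2 and CN-3, -1.677 without PI-1 and PI-3, -0.638 in the added setting and -0.564 to 1.157 on leaving out 1 library. The Hoxb13 slope, without PI-2 and PI-5, was 0.446 for Cd36, -0.686 for Fabp1, 0.131 for Dgat1, 0.129 for Sar1b, 0.417 for Nr1h4, 0.513 for Mgll, 0.009 for Lpcat3, 0.336 for Slc27a4 and 0.200 for Dgat2. The slope of Fabp1 was -0.158 without PI-1 and PI-3 and -0.181 in the added setting. The slope of Apob was 0.003 without PI-1 and PI-3 and in the added setting, 0.007 with no diet term and -0.129 to 0.009 on leaving out 1 library. The slope of Mttp was -0.120 with array weights, -0.085 with the block, -0.007 without CN-1, CN-2 and CN-3, -0.028 with Hoxa13 and Hoxd13 in place of Hoxb13, -0.019 in the added setting and -0.078 to 0.029 on leaving out 1 library.

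Depth limits Apoa4, Mogat2 and, outside 3 libraries, Fabp1 and Apoa1, where values rest on few reads.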
